A study of Mus musculus with 8 samples.

Results

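The genes described here were 5 outputs of the circadian clock: Dbp, Tef, Hlf, Nfil3 and Usp2. They were picked by symbol from the 17041 genes of the deposited expression table, and all 5 were found. Usp2 was included because earlier results of these data had placed it among the genes most changed between the groups, so the group difference of these genes is given as a description.

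The mice were ApoE knockouts, a strain prone to atherosclerosis, bred germ-free and given a bacterial community by gavage at 8 weeks of age. Tissue from the proximal large intestine was taken at 26 weeks. In 3 mice the community was the core set, which makes no butyrate, and in 5 mice it was the core set plus Roseburia intestinalis, a butyrate producer. Every animal therefore carried the ApoE knockout and the core set, and no germ-free or ApoE-intact animal is compared here. Lights were on a 12 h light:dark cycle, while the sources used here do not give the hour of dissection, the diet, the sex or which mice shared an isolator. One library was made per mouse, so a p-value covers only mouse-to-mouse spread.

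In the circadian clock, BMAL1 (gene Arntl) and CLOCK switch on genes that carry E-boxes in their control regions, and the PER and CRY proteins made in this way then shut BMAL1 and CLOCK off. DBP, TEF and HLF are transcription factors of the PAR bZIP family that rise and fall with this loop and activate genes at a site called the D-box. NFIL3 (also E4BP4) binds the same site and represses. USP2 is a ubiquitin-specific protease, an enzyme that takes ubiquitin off other proteins, and its transcript is rhythmic in many tissues.

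The control regions of these genes are shown because the members differ in which clock sites lie next to their start. Each sequence is the 250 bases before an annotated start in RefSeq, build GRCm38.p6, written 5′ to 3′ on the gene's strand. Capitals mark an E-box (CACGTG), a D-box (TTATGTAA or TTACGTAA) or a cyclic AMP response element (CRE, TGACGTCA). All 5 members matched an entry, Tef with 2 starts, and both strands were searched.
Usp2, chr9:44084670-44084919, plus strand: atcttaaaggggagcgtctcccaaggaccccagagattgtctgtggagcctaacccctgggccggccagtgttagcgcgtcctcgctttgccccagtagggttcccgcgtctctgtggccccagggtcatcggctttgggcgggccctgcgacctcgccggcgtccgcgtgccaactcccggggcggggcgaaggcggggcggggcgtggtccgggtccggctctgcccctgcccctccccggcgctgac
Dbp, chr7:45704997-45705246, plus strand: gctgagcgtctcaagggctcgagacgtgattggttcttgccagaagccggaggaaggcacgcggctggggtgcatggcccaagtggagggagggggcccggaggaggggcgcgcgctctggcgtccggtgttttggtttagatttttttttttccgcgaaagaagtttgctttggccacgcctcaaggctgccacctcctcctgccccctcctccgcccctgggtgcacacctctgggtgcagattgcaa
Tef, first start, chr15:81802423-81802672, plus strand: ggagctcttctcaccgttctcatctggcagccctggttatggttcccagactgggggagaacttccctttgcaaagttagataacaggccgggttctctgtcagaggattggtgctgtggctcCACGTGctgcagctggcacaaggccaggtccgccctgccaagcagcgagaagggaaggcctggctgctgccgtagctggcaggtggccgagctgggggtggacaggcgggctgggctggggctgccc
Tef, second start, chr15:81811164-81811413, plus strand: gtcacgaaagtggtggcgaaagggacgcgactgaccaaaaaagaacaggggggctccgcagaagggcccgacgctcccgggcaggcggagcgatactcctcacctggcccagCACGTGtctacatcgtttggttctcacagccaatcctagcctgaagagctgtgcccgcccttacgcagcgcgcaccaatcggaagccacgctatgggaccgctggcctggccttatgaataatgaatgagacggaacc
Hlf, chr11:90390918-90391167, minus strand: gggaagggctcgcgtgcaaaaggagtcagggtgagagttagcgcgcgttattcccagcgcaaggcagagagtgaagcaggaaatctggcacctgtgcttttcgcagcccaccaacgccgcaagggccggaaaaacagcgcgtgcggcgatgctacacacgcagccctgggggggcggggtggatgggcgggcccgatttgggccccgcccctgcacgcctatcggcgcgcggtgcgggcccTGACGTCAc
Nfil3, chr13:52981040-52981289, minus strand: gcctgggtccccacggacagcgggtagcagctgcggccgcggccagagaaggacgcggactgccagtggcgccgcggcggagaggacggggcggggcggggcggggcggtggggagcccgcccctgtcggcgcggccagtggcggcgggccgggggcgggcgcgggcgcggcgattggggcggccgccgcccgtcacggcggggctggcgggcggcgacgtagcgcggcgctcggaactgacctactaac
Per3, a clock repressor shown for comparison, chr4:151044666-151044915, minus strand: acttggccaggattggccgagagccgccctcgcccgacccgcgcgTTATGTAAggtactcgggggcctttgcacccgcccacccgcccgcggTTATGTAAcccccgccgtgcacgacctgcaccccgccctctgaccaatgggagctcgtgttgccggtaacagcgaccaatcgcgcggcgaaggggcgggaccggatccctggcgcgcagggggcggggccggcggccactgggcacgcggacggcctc
Pdxk, a target of the PAR bZIP factors shown because it moved with Usp2, chr10:78464949-78465198, minus strand: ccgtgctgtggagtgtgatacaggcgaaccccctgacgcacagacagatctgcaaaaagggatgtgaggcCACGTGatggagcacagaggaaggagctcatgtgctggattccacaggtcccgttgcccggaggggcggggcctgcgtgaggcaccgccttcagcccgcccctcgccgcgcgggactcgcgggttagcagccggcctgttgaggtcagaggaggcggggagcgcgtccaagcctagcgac

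Each Tef window held 1 E-box, 127 bases before the first start and 138 bases before the second. Pdxk held 1 E-box, 180 bases before its start. An E-box of this spelling was present in 6.02% of the 32851 RefSeq windows of the same length. The Hlf window held a CRE 9 bases before the start, a site found in 1.55% of windows. Per3, which held none of the other sites, had 2 D-boxes, at 205 and 158 bases before its start, against 0.931% of windows with any. None of these spellings occurred in the windows of Dbp, Usp2 or Nfil3, which says only that the letters are not in those 250 bases.

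Values below are the authors' normalized expression values, which scale with read counts and are not divided by gene length, so levels are compared between libraries and not between genes. Fold changes are differences of log2(value + 1), core plus R. intestinalis minus core, with a standard error (SE) from limma fitted over the 13020 genes with a mean of at least 10. Estimated depth ran from 4597893 to 15352045 reads, and a value of 50 stood for 31 to 109 reads. No gene passed a Benjamini-Hochberg adjusted p of 0.05 (0.0% of 13020 genes, smallest adjusted p 0.503 by limma), while 1058 genes (8.13%) had an unadjusted p below 0.05. In whole tissue, fewer cells of a type and less RNA per cell cannot be told apart.

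Usp2 had higher values in the mice with R. intestinalis. Its values were 76.19, 116.34 and 72.32 in core replicates 1 to 3. They were 237.03, 131.55, 206.03, 177.02 and 176.39 in core plus R. intestinalis replicates 1 to 5. All 5 libraries with R. intestinalis lay above all 3 core libraries, although the highest core library came close to the lowest of the others. Mean values were 88.3 ± 24.4 (SD, n = 3) and 186 ± 39.2 (SD, n = 5), a ratio of 2.10. The log2 difference was 1.07 (SE 0.230, 95% interval 0.562 to 1.579), the seventh smallest p of 13020 in limma, with an adjusted p of 0.588. These values chose the gene and are not a test of it. In the authors' deposited table Usp2 had a posterior probability of differential expression of 0.99 and a fold change of 2.1. It was the only member among the 82 genes (0.481% of 17041) at 0.95 or above there. Without core replicate 2 the log2 difference was 1.28, and leaving out any other single library gave at least 0.94. With limma library weights Usp2 passed the threshold (adjusted p 0.0377), as did 455 of 13020 genes in all. That fit gave R. intestinalis replicate 3 a weight of 7.98, against 0.32 to 1.78 for the other libraries. Once that replicate was left out of the weighted fit, Usp2 did not pass (limma adjusted p 0.443).

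**Figure D1:**
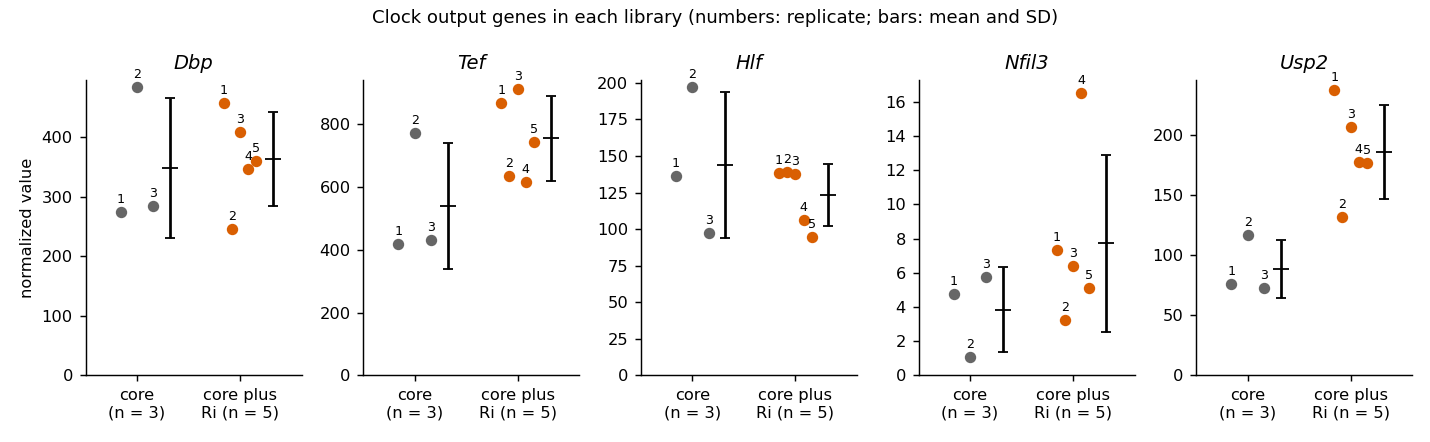
Normalized value (vertical axis, linear from 0) of Dbp, Tef, Hlf, Nfil3 and Usp2 in each of the 3 core and 5 core plus R. intestinalis (Ri) libraries, 1 numbered point per mouse, with bars for the mean and SD of each group. Usp2 is the member whose groups do not overlap, and core replicate 2 is the highest core library for Dbp, Tef, Hlf and Usp2.

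Tef, an activator at D-boxes, ranged more widely within the core group than between group means. Core replicates 1 to 3 gave 417.46, 770.69 and 431.64, and the libraries with R. intestinalis gave 867.34, 632.97, 912.27, 614.85 and 742.64. Core replicate 2 stood among the R. intestinalis libraries, while core replicates 1 and 3 lay below all of them. The means were 540 ± 200 (SD, n = 3) and 754 ± 134 (SD, n = 5), and the log2 difference was 0.52 (SE 0.222, 95% interval 0.030 to 1.015, limma adjusted p 0.588). Without core replicate 2 it was 0.81, over 1.5 times larger. It was smaller without core replicate 1 (0.37, unadjusted limma p 0.177) and without core replicate 3 (0.39, unadjusted limma p 0.158). Leaving out R. intestinalis replicate 3 gave 0.45 (unadjusted limma p 0.086). With limma library weights Tef passed the threshold (adjusted p 0.0416), as did 455 of 13020 genes in all. Without R. intestinalis replicate 3, the library with by far the largest weight, Tef did not pass (limma adjusted p 0.474).

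Dbp, the PAR bZIP factor most used as a marker of clock output, did not separate the groups. Its values were 274.6, 483.27 and 284.7 in core and 457.37, 244.78, 407.96, 346.96 and 359.17 with R. intestinalis. The highest value was in a core library and the lowest in an R. intestinalis library. Means were 348 ± 118 (SD, n = 3) and 363 ± 79.3 (SD, n = 5), with a log2 difference of 0.08 (SE 0.239, 95% interval -0.446 to 0.614, limma adjusted p 0.894). The interval leaves room for a change of either sign, and the sign itself changed when core replicate 1 (-0.06), core replicate 3 (-0.03) or R. intestinalis replicate 1 (-0.01) was left out. Without core replicate 2 the difference was 0.35.

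Hlf, the remaining PAR bZIP activator, was 136.51, 196.93 and 97.58 in core libraries. It was 138.21, 139.1, 137.96, 106.21 and 94.59 in the others. The groups overlapped, with core replicate 2 again the highest of its group. The log2 difference was -0.18 (SE 0.242, 95% interval -0.716 to 0.357, limma adjusted p 0.770), and it was 0.08 without core replicate 2.

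Nfil3, the repressor at the D-box, was barely read. Its values were 4.76, 1.06 and 5.74 in core and 7.34, 3.23, 6.4, 16.52 and 5.11 with R. intestinalis, which stood for 1.0 to 14.0 estimated reads per library. It fell under the minimum mean of 10 and was not tested in the main fit. A limma fit without that filter gave a log2 difference of 0.85 (SE 0.531, limma p 0.140, adjusted p 0.666). No difference of Nfil3 between the groups was detectable at this depth. Of the 4 members tested in the main fit, Usp2 and Tef had an unadjusted limma p below 0.05 (0.000793 and 0.0396), against 8.13% of all genes. Only Usp2 had groups that did not overlap, against 5.84% of all genes (2.53% higher and 3.31% lower with R. intestinalis). Usp2 was picked through this same contrast, so its place in both counts was known in advance and neither count is a test.

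The next question was whether the members moved together from mouse to mouse, which the choice of the genes by group did not use. Deviations of log2(value + 1) from the mean of each group were correlated over the 8 libraries. Usp2 and Dbp moved together almost in proportion (Pearson r = 0.988, Spearman rho = 0.952, n = 8). The exact two-sided permutation test within groups gave p = 0.006, and the adjusted p over the 95 pairs computed was 0.264. With 720 orders the smallest p possible was 0.0014. Leaving out the 2 libraries farthest from the median of Dbp gave r = 0.973. That step kept the group means of all 8 libraries, so a left-out library still bears on the rest of its group. Leaving out any 1 library, with the means recomputed, gave 0.980 to 0.995. No pair passed the adjusted threshold, and 9 of 95 had an exact p below 0.05.

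Tef followed the same course less closely. Its r was 0.890 with Dbp (rho = 0.810, n = 8, exact permutation p = 0.015, adjusted p 0.426) and 0.870 with Usp2 (rho = 0.690, exact permutation p = 0.022, adjusted p 0.426). Without the 2 libraries farthest from the median, with the group means kept, these were 0.901 and 0.803. With only core replicate 2 left out and the means recomputed, they were 0.782 and 0.779. Hlf had weaker values, 0.473 with Dbp, 0.528 with Usp2 and 0.691 with Tef. Without core replicate 2 they were -0.03 with Dbp, 0.137 with Usp2 and 0.285 with Tef, so they rest on that library. Nfil3, at its few reads, gave negative values with Tef (-0.588) and Hlf (-0.644), which were -0.140 and -0.339 without core replicate 2.

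**Figure D2:**
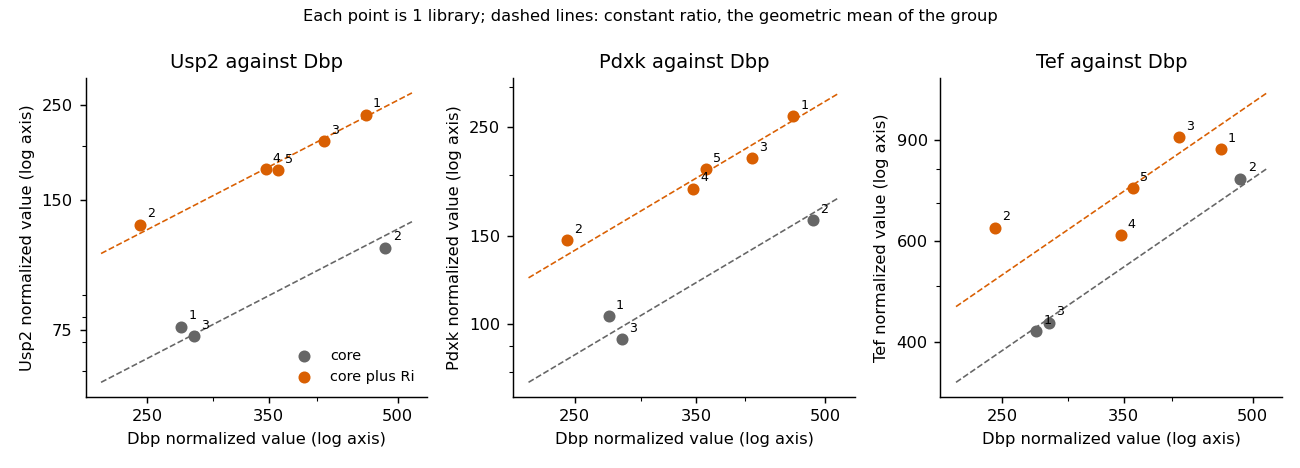
Normalized values of Usp2, Pdxk (a target of the PAR bZIP factors) and Tef against Dbp, 1 numbered point per library, both axes on a log scale; dashed lines mark a constant ratio at each group's geometric mean. Usp2 and Pdxk lie along separate lines for the core and the R. intestinalis (Ri) libraries, and Tef scatters more widely around its lines.

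Among the core clock genes, Per3, a repressor with D-boxes in its promoter, gave r = 0.915 with Tef (rho = 0.857, n = 8, exact permutation p = 0.024, adjusted p 0.426). The r was 0.760 without the 2 libraries farthest from the median of Tef, with the group means kept. With only core replicate 2 left out and the means recomputed, it was 0.769. Nr1d1, which encodes the repressor REV-ERB alpha, gave 0.724 with Dbp and 0.753 with Usp2. Those fell to 0.118 and 0.391 once each library's dependence on transcript GC content was removed, whereas Usp2 with Dbp was 0.918 and Tef with Dbp 0.892 after the same step. Clock, an activator, gave -0.530 with Dbp, which became 0.101 after the GC step. Arntl gave 0.393 with Dbp, which became -0.008 after the GC step and 0.050 without R. intestinalis replicate 2. The 8 points of each pair share library depth and tissue composition.

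**Figure D3:**
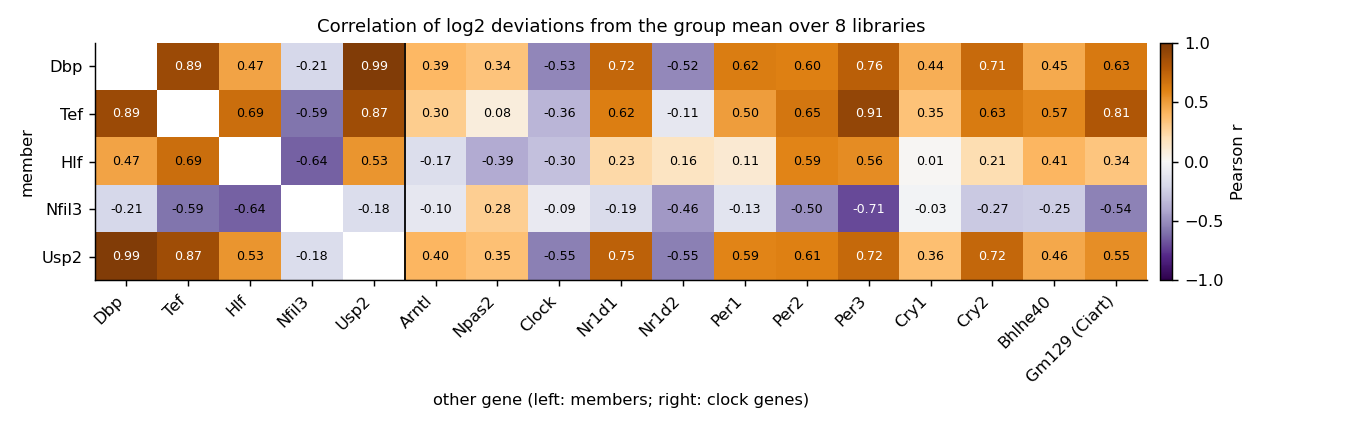
Within-group Pearson r over 8 libraries (colour, from -1 to 1) between each of the 5 members and the other members and core clock genes. The strongest cell is Usp2 with Dbp at 0.988, and Nfil3 is negative with Tef and Hlf.

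The genes most like each member were ranked by the same r among 9588 genes with a mean of at least 50. Usp2 was the gene most like Dbp, and Dbp the gene most like Usp2. Next to Dbp came Prkce, a protein kinase C (0.980), Pdxk (0.975), Abl1 (0.965) and Fam195b (0.964). Next to Usp2 came Pdxk (0.985), Prkce (0.979), Josd2 (0.973) and Papd7 (0.973). Pdxk is pyridoxal kinase, which makes the active form of vitamin B6 and is a known target of the PAR bZIP factors. After the GC step Usp2 ranked 5 for Dbp and Dbp ranked 11 for Usp2, with Pdxk at 4 for Usp2 (0.964) and 20 for Dbp (0.853). Fam195b dropped to rank 2997 for Dbp. Tef was closest to Ptpn11 (0.981), a phosphatase, with Per3 at rank 16, Dbp at 43 and Usp2 at 70. Hlf was closest to Zfp295 (0.959). For Dbp, Tef ranked only 133, Per3 1021 and Nr1d1 1303. For Usp2, Tef ranked 247, Per3 1493 and Nr1d1 1194, so many other genes had a higher r than these.

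Because Usp2 tracked Dbp within each group, its value was also set against Dbp library by library, a ratio chosen after the values were seen and given without a test. Usp2 over Dbp was 0.277, 0.241 and 0.254 in the core libraries. It was 0.518, 0.537, 0.505, 0.510 and 0.491 in the R. intestinalis libraries. Within a group the ratio hardly moved, and between groups it shifted by 1.00 on the log2 scale. That shift mostly restates the Usp2 difference of 1.07 through which the gene was chosen, since Dbp differed by 0.08. The same holds for the lack of overlap in this ratio, so neither is a separate result. The mean ratio was 0.257 ± 0.0186 (SD, n = 3) and 0.512 ± 0.0171 (SD, n = 5). Groups did not overlap, being higher with R. intestinalis, in this ratio for 2.2% of 12976 genes, and lower for 0.462%. The within-group SD of the log2 ratio was 0.0714, against 0.337 for Usp2 itself, and no other of the 12976 genes set over Dbp had a smaller one (median 0.484). Counting error alone, from estimated reads, would give an SD of 0.161, which is larger than the SD seen. The small spread is therefore no measure of how closely the 2 genes are tied. In 103 genes the log2 difference of the ratio was at least as large as that of Usp2.

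**Figure D4:**
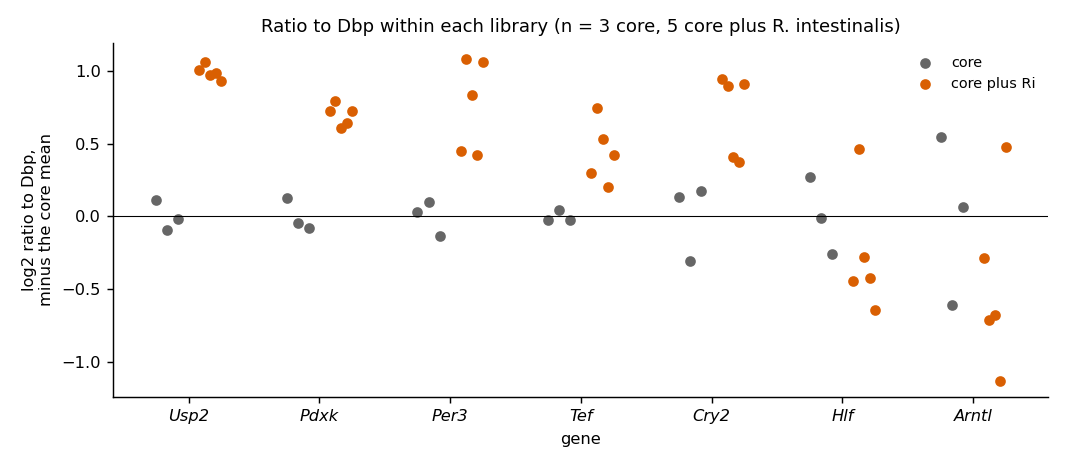
Log2 ratio of each gene to Dbp in the same library, minus the mean of the 3 core libraries (vertical axis), for 7 genes, 1 point per mouse, by group. Usp2 points of the R. intestinalis (Ri) group lie close together about 1.00 above the core points, while those of Hlf and Arntl overlap the core points.

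Pdxk behaved alike against Dbp. The ratio was 0.378, 0.335 and 0.327 in core and 0.573, 0.601, 0.528, 0.540 and 0.571 with R. intestinalis, a log2 difference of 0.70 with no overlap. For Tef the ratio was 1.52, 1.59 and 1.52 in core and 1.90, 2.59, 2.24, 1.77 and 2.07 with R. intestinalis, a log2 difference of 0.44, also without overlap. Per3 and Cry2 lay apart in the same direction. The repressors Per1, Per2, Cry1, Bhlhe40 and Ciart (Gm129) overlapped, as did Hlf, Arntl, Clock, Npas2, Nr1d1 and Nr1d2. Dbp is the denominator in all of these, so they are not independent of one another.

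The loop that drives the members was next compared between groups. All 9 tested clock repressors had a higher mean log2 value with R. intestinalis (median 0.67), against 49.6% of all genes above 0 and a median near 0 (-0.003). None passed the adjusted threshold, 4 of 9 had an unadjusted limma p below 0.05 in that direction (4.44% of all genes), and 1 had groups apart (2.53%). Per3 was 201 ± 82.1 in core (SD, n = 3) and 353 ± 71.5 with R. intestinalis (SD, n = 5), a log2 difference of 0.85. Cry2, whose groups were apart, was 113 ± 15.6 (SD, n = 3) and 202 ± 60.9 (SD, n = 5), a difference of 0.79. Per1 (0.75), Per2 (0.84), Bhlhe40 (0.67), Cry1 (0.50) and Ciart, listed as Gm129 (0.50), also lay above 0. Single libraries moved several of them: without core replicate 1, Gm129 had 0.11 and Bhlhe40 0.44. Without core replicate 3, Per1 had 0.39 and Per2 0.29, and without core replicate 2, Per2 had 1.30 and Gm129 0.81. After the GC step Per1 had 0.44. Nr1d1 (0.05) and Nr1d2 (0.04) were near 0, and both changed sign when some single libraries were left out. Bhlhe41 was too low to test.

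Among the activators, Arntl had a log2 difference of -0.38 and Clock of -0.41 (-0.24 after the GC step). Arntl ran from -0.62 without R. intestinalis replicate 5 to -0.18 without replicate 2, and had -0.21 without replicate 4 and -0.25 without core replicate 1. Npas2, a partner of BMAL1 in place of CLOCK, had 0.06, and its sign changed when some single libraries were left out. The 3 genes overlapped between groups, and none passed the adjusted threshold in limma. Of these 3, Clock had an unadjusted limma p below 0.05 (0.0333), lower with R. intestinalis, against 3.69% of all genes. After the GC step its limma p was 0.116.

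**Figure D5:**
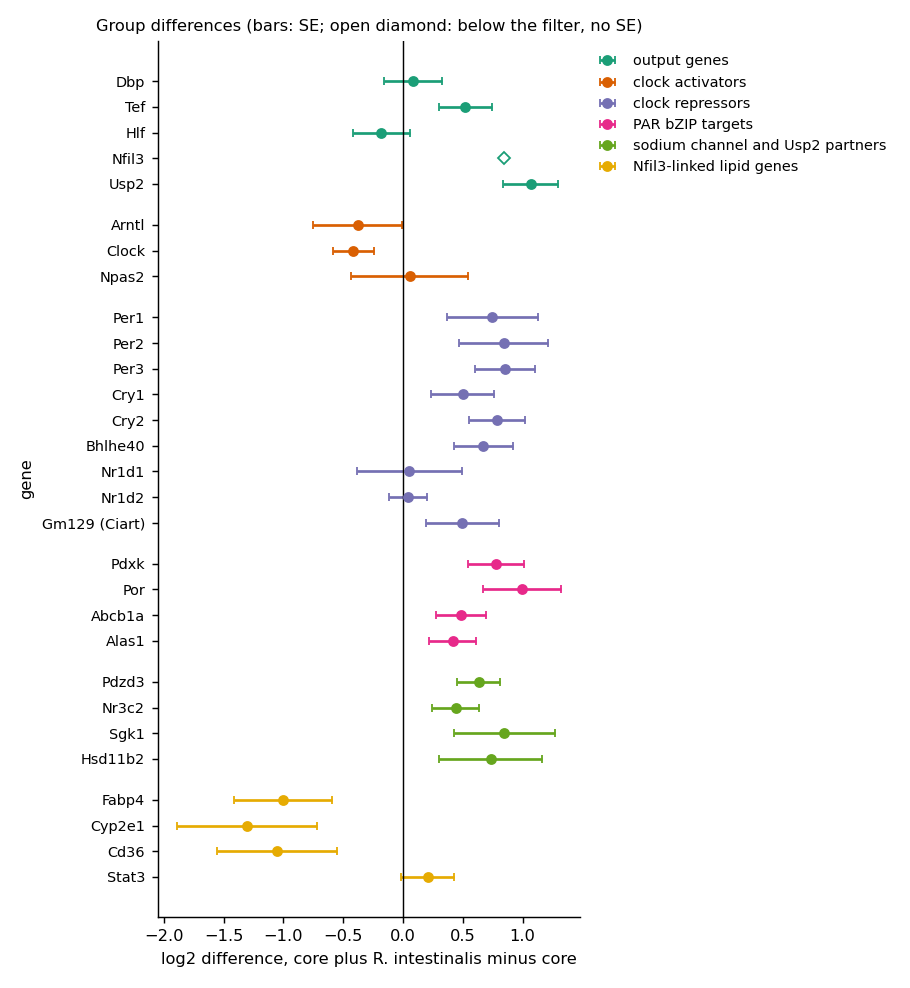
Log2 difference, core plus R. intestinalis minus core, with its SE as a bar. Shown are the 5 members, core clock genes, targets of the PAR bZIP factors, sodium uptake genes and lipid genes. The open diamond is Nfil3, which was not tested in the main fit. Usp2 at 1.07 lies farthest above 0, the Per and Cry repressors lie above 0, and Dbp lies near 0.

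Genes known to be controlled by the PAR bZIP factors were read next. Of 6 tested, 5 lay above 0 (median 0.51), against 49.6% of all genes. An unadjusted limma p below 0.05, higher with R. intestinalis, was found for 3, against 4.44% of all genes. None passed the adjusted threshold, and 1 had groups apart, higher with R. intestinalis (2.53% of all genes). Por, which passes electrons to cytochrome P450 enzymes, was 212 ± 42.5 in core (SD, n = 3) and 455 ± 223 with R. intestinalis (SD, n = 5), a log2 difference of 1.00 with groups apart. The gap was small, from 240.57 in the highest core library to 251.01 in R. intestinalis replicate 2, while R. intestinalis replicate 1 reached 830.61. Pdxk was 120 ± 37.1 (SD, n = 3) and 203 ± 41.9 (SD, n = 5), a difference of 0.78. Abcb1a, a drug efflux pump, had 0.49 and Alas1, which starts heme synthesis, 0.42. The liver P450 targets Cyp2b10, Cyp2a5, Cyp3a11 and Cyp7a1 were under the minimum mean. Of 8 other rhythmic genes 6 lay above 0 (median 0.18), against 49.6% of all genes. Of the 8, 1 gene, Fkbp5 (0.56), had an unadjusted limma p below 0.05, higher with R. intestinalis (4.44% of all genes). The C/EBP relatives, which are bZIP factors of another branch, had a median of 0.12 over 4 tested members and none with a p below 0.05.

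Lipid and lymphoid genes were read for Nfil3. The lipid genes had 3 of 5 members below 0 and a median of -1.004, with 2 unadjusted limma p below 0.05, lower with R. intestinalis (3.69% of all genes). Fabp4, a fatty acid carrier of fat cells, had a log2 difference of -1.004, Cyp2e1 -1.30 and Cd36, a fatty acid transporter, -1.05 (without core replicate 1, Cyp2e1 had -0.83 and Cd36 -0.64), while Stat3 had 0.21. Adipocyte markers summed to 951.6 to 1987.3 in core and 180.0 to 922.1 with R. intestinalis, with all 5 tested markers below 0 and Lep at 0 in at least 1 library; their part in these values was not tested. Of the lymphoid genes linked to Nfil3, Id2, an inhibitor of other transcription factors, had a log2 difference of -0.33 (-0.22 without core replicate 1 and -0.51 without core replicate 2), Tox 0.16 and Il7r, a cytokine receptor, 0.12, all with overlapping groups. The sign of Tox and of Il7r changed under some alternatives.

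For Usp2, its family was compared first. The table held 48 ubiquitin-specific protease genes, of which 42 were tested, and Usp2 had the largest difference of them. Usp2 was chosen for this same difference, so its place in the family is a description and not a test. The other 41 ran from -0.29 to 0.72 with a median of 0.03. Usp30, a mitochondrial member, had 0.72 and Usp42 0.58, each with overlapping groups, and Usp30 had 0.39 without core replicate 1. These were the 2 of the other 41 with an unadjusted limma p below 0.05, higher with R. intestinalis, a share near the 4.44% of all genes. Usp2 has been linked to epithelial sodium uptake in the kidney. Genes of that uptake and its control, Nedd4 and Nedd4l among them, lay above 0 for 9 of 10 (median 0.44), against 49.6% of all genes. The list mixes channel subunits and regulators, so this count is not a measure of sodium uptake. Of the 10, 2 had an unadjusted limma p below 0.05, higher with R. intestinalis (4.44% of all genes), and 1 had groups apart (2.53%). Pdzd3, a scaffold protein reported as a partner of USP2, was 78.8 ± 8.48 (SD, n = 3) and 123 ± 18.6 (SD, n = 5), a log2 difference of 0.63, and was the one with groups apart. After the GC step Pdzd3 had 0.37. Nr3c2, the mineralocorticoid receptor, had 0.44 (0.26 without core replicate 1) and Sgk1, a kinase induced through that receptor, 0.85. Hsd11b2, which inactivates glucocorticoids, had 0.73, but 0.43 without R. intestinalis replicate 1, 0.48 without core replicate 3 and 0.46 after the GC step. The substrate genes Ccnd1, Mdm2 and Mdm4, whose products lose ubiquitin through USP2, had -0.16, -0.05 and 0.06, and Fasn had 0.72. Fasn had 0.46 without R. intestinalis replicate 1 and 0.40 after the GC step.

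The tissue pieces differed in their cell makeup, and some of that moved with the members. The summed colonocyte markers were 77398.5 to 141288.5 in core and 127402.5 to 158283.7 with R. intestinalis, lowest in core replicate 2, where Dbp, Tef and Hlf were highest in their group. Within groups their sum gave r = -0.712 with Dbp, -0.792 with Tef, -0.732 with Usp2 and -0.701 with Hlf (n = 8, as a description). The distal colon markers, 58.6 to 599.5 in core and 11.9 to 885.7 with R. intestinalis, gave 0.747 with Dbp, 0.701 with Tef and 0.737 with Usp2, but 0.193 with Hlf. All 6 small intestine markers lay above 0 (median log2 difference 1.07), with sums of 1753.3 to 6869.1 in core and 2221.6 to 7098.3 with R. intestinalis. Their sum gave r = -0.533 with Dbp, -0.661 with Tef and -0.455 with Usp2. Smooth muscle markers were 127429.8 to 175440.4 and 84934.5 to 149855.8, with all 6 below 0. Fibroblast markers, 7773.0 to 8920.5 and 4614.0 to 6994.0, were lower in all R. intestinalis libraries. Estimated reads gave 0.499 with Dbp, 0.588 with Tef and 0.526 with Usp2. The part of makeup and depth in the shared movement, and in the higher Usp2, was not tested.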

How the data were processed

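RNA of 8 proximal large intestine samples was read from 1 deposited table, 1 column per mouse. Bowtie2, RSEM 1.2.23 and the build mm9 are listed in the submitters' processing notes, without saying which did what. Per the file headers, the deposited values are a normalized expression signal made by the authors. For every gene the authors deposited a score, the posterior probability that the groups differ, and a fold change, a ratio with core as the denominator. Depth was estimated from the step between low values: 80.0% to 84.5% of those under 30 were whole multiples of it (within 0.05), so the values were not treated as counts.

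The members and gene lists were chosen with earlier results of these data known. Named were the members, all core clock genes, up to 4 genes with the smallest limma p from each other list, and the 5 nearest genes per member with a mean of at least 50. An item that this rule takes is not reported here. The scale was log2(value + 1), on which low genes show too small a change, and genes with a mean of at least 10 were tested with limma 3.58.1 in R 4.3.3 (mean-variance trend, Benjamini-Hochberg adjustment, threshold 0.05). The script was tested on simulated data. Correlations used deviations from group means, with exact permutation within groups. The GC step removed a smooth trend with the GC content of transcripts (lowess, span 0.3) from every library (GC known for 99.0% of genes). Promoters came from RefSeq. Alternatives were other pseudocounts, filters and scalings, each library left out, blocks, library weights and voom on estimated reads. The sample names number the core libraries from 3, and other core libraries are not analysed here.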

Additional observations from a re-analysis of the deposited data

Results flagged for a closer look

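Among 53 named genes examined, 3 had 1 mouse far from the others of the R. intestinalis group, with a gap to its nearest neighbour of at least 0.71 of the group's range; chance gives this in about 1 in 20 groups. Cebpd was 182.78 in replicate 5, against 14.02 to 55.47 in the others. Fabp4 was 784.79 in replicate 4, against 198.31 to 368.2. Fasn was 910.07 in replicate 1, against 259.87 to 426.03. None of the 5 clock output genes was among them.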

How the results depend on the processing

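The log2 differences of Tef and Usp2 stayed above 0 under all alternatives run. That of Nfil3 did so too (0.315 to 1.17 over 12 alternatives), but the depth limits Nfil3, read 1.0 to 14.0 times per library. With each library left out in turn, Dbp ran from -0.060 to 0.346, Hlf from -0.428 to 0.075, Cebpd from -0.244 to 0.716, Cebpg from -0.066 to 0.118, Il7r from -0.069 to 0.542, Npas2 from -0.245 to 0.333, Nr1d1 from -0.295 to 0.259 and Nr1d2 from -0.054 to 0.106. Genes past the adjusted threshold ran from 0 to 1 (1 without core replicate 1), genes with an unadjusted limma p below 0.05 from 270 (without core replicate 1) to 1908 (without R. intestinalis replicate 2), and 701 without R. intestinalis replicate 3. Members with such a p ran from 1 to 2, and where the number was 1 the member was Usp2, with Tef no longer below 0.05. The number was 1 under quantile normalization and 1 without the mean-variance trend. Within-group r ran from -0.029 to 0.847 for Dbp with Hlf, from -0.776 to 0.440 for Dbp with Nfil3 and from -0.721 to 0.412 for Nfil3 with Usp2, with the changed sign in each case without core replicate 2.

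The GC correction, chosen after seeing the data, gave log2 differences of -0.153 for Dbp, -0.175 for Cebpa, -0.229 for Npas2 and -0.172 for Nr1d1, and moved the ratio to Dbp to 1.089 for Usp2 and 0.805 for Pdxk. Quantile normalization gave -0.016 for Npas2, and voom on estimated reads, also added later, -0.005 for Il7r. Library weights gave 0.853 for Tef, 1.268 for Usp2, -0.311 for Npas2 and 0.006 for Mdm2, with 455 genes past the threshold and 3829 with an unadjusted p below 0.05. Per3, Cry2, Bhlhe40, Pdxk, Por, Abcb1a, Pdzd3, Nr3c2 and Sgk1 passed with weights too, so passing there was not particular to Usp2 and Tef. Weights without R. intestinalis replicate 3, an addition made after seeing the data, left 0 genes past the threshold, and gave -0.038 for Cdkn1a, -0.031 for Cebpg, -0.023 for Mdm4, -0.208 for Npas2, -0.214 for Nr1d1 and -0.008 for Nr1d2. The cause of these changes was not tested.

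Libraries with the same replicate number in the titles had correlations of deviations of -0.115, -0.53 and -0.07. These gave no sign that the numbers pair the samples, but they cannot exclude it. With the replicate block, 395 genes and 1 member had an unadjusted limma p below 0.05. Usp2 then had a log2 difference of 1.10 (limma adjusted p 0.923). The block gave 0.005 for Hlf, -0.579 for Cebpd, 0.017 for Ddit3, -0.257 for Il7r and -0.052 for Npas2. A block on the number in the sample name, added later, gave -0.133 for Nr1d1, -0.001 for Nr1d2 and -0.061 for Tox, with 1 member at a p below 0.05.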
